A study of Bos indicus and Bos taurus with 17 samples.

Results

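Chemokines are small secreted proteins that attract leucocytes along a concentration gradient. The CC and CXC families are named after the spacing of the first cysteines of the protein, and both act through G protein-coupled receptors on the surface of the responding cell. In the udder, the epithelium and the resident macrophages release chemokines when bacterial products are sensed, and neutrophils, monocytes and lymphocytes then enter the gland and the milk. A list of 10 chemokine ligands was followed here: CCL2, CCL3, CCL4, CCL5, CCL14, CCL20, CXCL2, CXCL8, CXCL12 and CXCL16. The members were looked up by symbol among the 21631 distinct gene names of the expression values. Of the 10, 7 were found, each in a single entry, and 3 (CCL3, CXCL2 and CXCL8) were not found among the names and were not analysed here. CXCL2 and CXCL8 are the classical neutrophil attractants, so the CXC members of the list followed below are CXCL12 and CXCL16.

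The cells came from the milk of Jersey cattle, a high-yielding dairy breed, and of Kashmiri cattle, a local breed of northern India not improved for milk. The series names Bos indicus and Bos taurus as its species, and the reads of both breeds were mapped to a Bos taurus assembly. An effect of the species or of the assembly on the breed ratios was not tested. Milk was taken on day 15 in milk (D15, March), D90 (July) and D250 (December), representing early, mid and late lactation, and cells were captured with beads coated with an antibody to cytokeratin 18. The labels gave 3 samples for each breed and day except Jersey at D90, with 2. By the labels, 11 of the 17 samples were from cows lactating for the 2nd time and 6 from cows lactating for the 3rd time. The paper, in contrast, gives the 3rd lactation for all cows. Lactation number was not taken into account in the comparisons below. Since every sample of a day carried the same month, day in milk and season cannot be told apart.

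The values were FPKM, the sequenced fragments of a gene scaled to its transcript length and to the mapped reads of the library, made by the authors as 1 value per breed and day. Series of 3 values are given in the order D15, D90 and D250. There was no value per cow, so no spread between animals, no error and no test could be computed for any difference below. A single cow could carry a group value. The paper tested differences between days and between breeds with Cuffdiff, and its calls are not part of the counts below. The paper lists read counts per library without the breed and day of each, so the read depth behind an FPKM is unknown. Because FPKM is taken per length of transcript, levels of different genes can be set side by side. Chemokine genes of the CC family have close copies in the genome and reads mapping to several positions were discarded by the authors, so the level of a gene with a near-identical copy is uncertain.

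The label of the cells was checked against marker genes. All 13 epithelial markers found were above 0 in every group, and their summed level was between 304 FPKM (Jersey, D90) and 7815 FPKM (Kashmiri, D15). KRT18, the capture antigen, had 51.3, 9.13 and 11.5 FPKM in the Kashmiri and 33.7, 1.59 and 4.51 FPKM in the Jersey groups. Leucocyte markers were present too. The 8 neutrophil markers found summed to between 529 FPKM (Kashmiri, D15) and 14314 FPKM (Jersey, D250). The paper checked purity by qPCR in samples of D90, comparing the captured cells with all milk somatic cells. KRT18 and the casein gene CSN2 were higher in the captured cells, and LSP1, HBA and CD18 were lower. From this the paper proposes that contamination by other cells was minimal. The values here compare groups of captured cells only, and the epithelial sum was lowest at D90 in both breeds. In these mixed cells, more cells of a type and more RNA per cell cannot be told apart.

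CCL14 was the most abundant of the chemokine transcripts in Jersey milk cells. CCL14 is a CC chemokine whose processed form acts on monocytes and other leucocytes. It had 103, 278 and 440 FPKM in the Kashmiri groups. The Jersey groups had 2382, 7509 and 10502 FPKM. Every Jersey value was above every Kashmiri value, and as deposited the level was higher at each later day in both breeds. Among all names, CCL14 was at rank 60, 2 and 5 by FPKM in Jersey cattle and at rank 854, 258 and 154 in Kashmiri cattle. In Jersey cattle at D90 and D250, however, the paper lists the casein and whey protein genes and B2M above CCL14. The deposited milk protein levels thus differ from the paper's, and these ranks hold for the deposited names only. For CCL14 itself the paper lists the same Jersey values at D90 and D250. At D15 it marks CCL14 in Jersey cattle as below the threshold of its list, a threshold that the deposited 2382 FPKM exceeds. From D15 to D250 the level was 4.26-fold higher in Kashmiri and 4.41-fold higher in Jersey cattle, and the breed ratio was between 23.1 (D15) and 27.0 (D90). These sizes depended on the scaling. When FPKM was rescaled to its total without the milk protein genes, the level from D15 to D250 was 8.32-fold higher in Kashmiri and 3.75-fold higher in Jersey cattle. The Jersey values of D90 and D250 were then level (log2 ratio -2.0e-05), and the breed ratio was 30.8, 34.3 and 13.9. The factors of this rescaling were nearly those of one to the total of all deposited FPKM. Leaving out the milk protein genes thus changed the scaling little.

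CCL5, which attracts T cells, monocytes and eosinophils, was the leading chemokine of Kashmiri milk cells at D15 and D90. It had 1109, 1649 and 187 FPKM in the Kashmiri groups. In Jersey cattle the values were 575, 1710 and 177 FPKM. Both breeds therefore had their highest CCL5 at D90 and their lowest at D250, and the 2 breeds lay close to each other at D90 (ratio Jersey over Kashmiri 1.04) and D250 (ratio 0.948, and 0.551 with the rescaling to the total). Of the 7 chemokines, CCL5 was the one with the smallest span over the groups, 9.67-fold between the highest and the lowest value.

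CCL4, also known as macrophage inflammatory protein 1 beta, differed between the breeds in its course. It had 269.7, 280.2 and 46.2 FPKM in the Kashmiri groups. The Jersey groups had 86.2, 1324 and 422 FPKM. At D15 the Kashmiri value was 3.13 times the Jersey value, and at D90 and D250 the Jersey value was 4.73 and 9.13 times the Kashmiri value. From D15 to D250 the level was 4.89-fold higher in Jersey cattle and 5.84-fold lower in Kashmiri cattle (2.99-fold lower with the rescaling to the total).

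CCL2, the monocyte attractant that binds CCR2, was lowest at D15 in both breeds. In the Kashmiri groups its values were 7.85, 82.6 and 78.1 FPKM. The Jersey groups had 122, 1550 and 777 FPKM. From D15 to D90 the level was 10.5-fold higher in Kashmiri and 12.7-fold higher in Jersey cattle. Jersey exceeded Kashmiri cattle on each day, by 15.5-fold at D15, 18.8-fold at D90 and 9.95-fold at D250.

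CCL20, the ligand of CCR6 and a product of stimulated epithelium and leucocytes, had the widest breed ratio of the 7 at D90 and D250. It stayed below 1 FPKM on all days in Kashmiri cattle, with 0.0475, 0.237 and 0.326 FPKM. The Jersey groups had 1.57, 42.7 and 69.4 FPKM. The Jersey values were 33.2, 180 and 213 times the Kashmiri ones. These ratios rest on Kashmiri values close to 0, and with a pseudocount of 1 FPKM the log2 ratios of 5.05, 7.50 and 7.73 became 1.30, 5.14 and 5.73.

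CXCL16, a chemokine that is also made as a membrane-bound scavenger receptor on macrophages and binds CXCR6, had 17.4, 79.5 and 82.7 FPKM in the Kashmiri groups. The Jersey groups had 148, 648 and 417 FPKM. As with CCL2, the Kashmiri values at D90 and D250 were close to each other as deposited, and the Jersey value was highest at D90. Jersey cattle had 8.50, 8.16 and 5.04 times the Kashmiri level at D15, D90 and D250, and 2.93 times at D250 with the rescaling to the total.

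CXCL12, the stromal ligand of CXCR4 that retains leucocytes and progenitors in tissues, was highest in Kashmiri cattle at D15. It had 48.7, 2.92 and 1.39 FPKM in the Kashmiri groups. The Jersey groups had 0.859, 0.0202 and 2.77 FPKM. The Kashmiri D15 group stood far above the other 5, of which the highest had 2.92 FPKM. At D15 the Kashmiri level was 56.7 times the Jersey level, and among the 11202 names compared at D15 CXCL12 had the 14th lowest log2 ratio (-4.74 with a pseudocount of 1). The paper lists CXCL12 among its top significant breed differences at D15 and D90. Its log2 ratios are those found here without a pseudocount (-5.83 and -7.17). At D90 the ratio rests on the Jersey value of 0.0202 FPKM and was -1.94 with a pseudocount of 1. The high CXCL12 value stood in a group where 7 of the 12 fibroblast and endothelial markers were listed at 0 and their sum was 0.935 FPKM, while the epithelial markers had their highest sum, 7815 FPKM. The epithelial sum was 4213 FPKM in the Kashmiri D250 and 3249 FPKM in the Jersey D15 group, where CXCL12 had 1.39 and 0.859 FPKM. The cell source of CXCL12 was not tested.

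**Figure D1:**
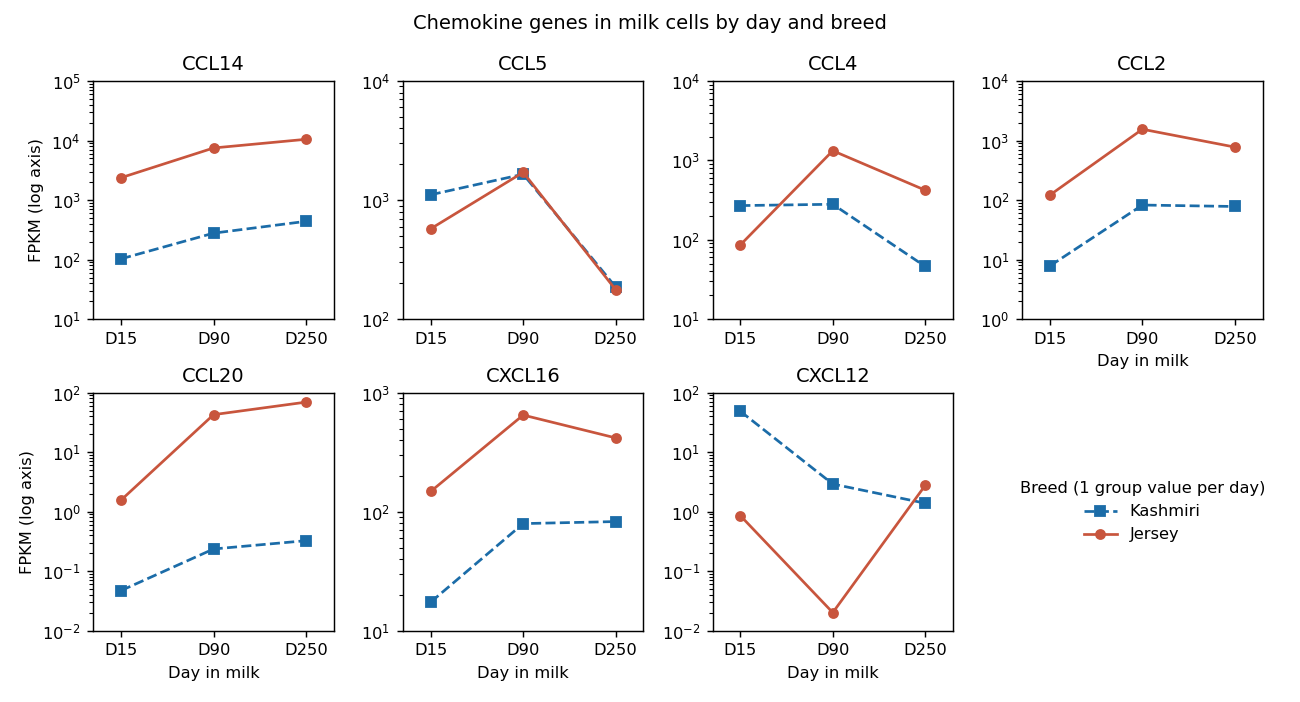
FPKM (log axis) of the 7 chemokine genes found, at D15, D90 and D250 in Kashmiri (squares, dashed) and Jersey cattle (circles), 1 group value per point with no error available. The Jersey line lies above the Kashmiri line on every day for CCL14, CCL2, CCL20 and CXCL16, the lines of CCL5 meet at D90 and D250, and CXCL12 is highest in Kashmiri cattle at D15 (48.7 FPKM).

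Together, the 7 chemokines summed to 1556, 2373 and 835 FPKM in the Kashmiri groups, which was 0.152%, 0.287% and 0.157% of the sum of all FPKM. In Jersey cattle they summed to 3315, 12785 and 12366 FPKM, or 0.434%, 1.98% and 1.37%. The sums of all FPKM are as deposited. In each Jersey group and in Kashmiri cattle at D250, the milk protein levels listed by the paper together exceed that sum. These percentages hold for the deposited values only. The composition differed as well as the amount. CCL5 made up 71.3% and 69.5% of the chemokine sum at D15 and D90 in Kashmiri cattle, and 22.3% at D250, when CCL14 held 52.7%. In Jersey cattle CCL14 held 71.8%, 58.7% and 84.9% at D15, D90 and D250, and CCL5 held 17.3%, 13.4% and 1.43%. Without CCL14, the sum of the other 6 chemokines was higher in Kashmiri than in Jersey cattle at D15 (1452 against 933 FPKM) and lower at D90 (2095 against 5276 FPKM) and D250 (395 against 1865 FPKM).

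**Figure D2:**
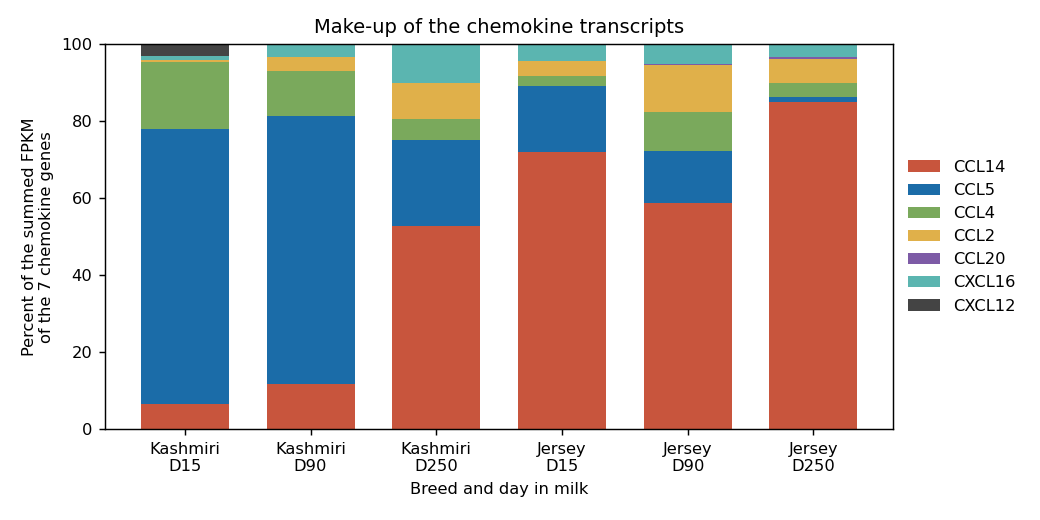
Share of each chemokine gene in the summed FPKM of the 7 genes (percent), for each breed and day, 1 group value per bar. CCL5 takes 71.3% of the Kashmiri bar at D15 and CCL14 takes 84.9% of the Jersey bar at D250.

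A chemokine was counted as past the limit when log2 of (FPKM + 1) differed by 2 or more between the groups compared, with 1 FPKM or more in at least 1 of them. The share of all names past the same limit is given beside the first count in each comparison and direction. Medians are of log2 ratios of FPKM + 1, and log2 ratios of single genes are of FPKM unless the pseudocount is named.

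Between the breeds, 3 of the 7 chemokines (CCL14, CCL2 and CXCL16) were past the limit as higher in Jersey cattle at D15, where 6.45% of 11202 names were. CXCL12 was past it as lower, a direction shared by 2.12% of names. At D90, 5 of 7 (CCL14, CCL2, CCL4, CCL20 and CXCL16) were higher in Jersey cattle, against 6.58% of 11209 names, and 0 were lower, against 5.17%. At D250 the same 5 genes were higher, against 10.9% of 11642 names, and 0 were lower, against 1.37%. CXCL16 was no longer past the limit at D250 under either rescaling, to the total (log2 ratio 1.55) or by the upper quartile (1.83). The median log2 ratio of the 7 genes was 1.30, 3.01 and 3.16 at D15, D90 and D250, beside -0.13, -0.03 and -0.10 for all names compared. CCL5 was past the limit on none of the days, with log2 ratios of -0.95, 0.05 and -0.08. With FPKM rescaled by the upper quartile, CXCL12 was also past the limit at D90, so that 5 were higher and 1 was lower, and the sign of the CCL5 ratio at D90 turned (log2 ratio -0.0859).

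From D15 to D90, 2 chemokines (CCL2 and CXCL16) were past the limit as higher at D90 in Kashmiri cattle, against 2.34% of 11297 names, and CXCL12 as lower, against 5.16%. In Jersey cattle 4 (CCL2, CCL4, CCL20 and CXCL16) were higher at D90, against 2.98% of 11080 names, and 0 were lower, against 3.78%. The log2 ratio of CXCL16 was almost the same in both breeds, at 2.19 for Kashmiri and 2.13 for Jersey cattle, and that of CCL2 was 3.40 and 3.67. CCL4 was the member that differed most between the breeds over this interval, since its log2 ratio was 0.06 for Kashmiri and 3.94 for Jersey cattle. For CXCL12 the Jersey values of both days were below 1 FPKM, and it was not counted there.

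From D90 to D250, CCL4 and CCL5 were past the limit as lower at D250 in Kashmiri cattle, against 1.12% of 11414 names. With the rescaling to the total, CCL5 was past it (log2 ratio -2.50) and CCL4 was not (-1.95). In Jersey cattle CCL5 was past the limit as lower, against 0.466% of 10955 names. CCL5 lay at the far end of all names in both breeds, with the 22nd lowest ratio in Kashmiri (log2 ratio -3.14) and the 20th lowest in Jersey cattle (-3.27). In both breeds 0 chemokines were past the limit as higher, against 0.859% of names in Kashmiri and 3.72% in Jersey cattle. The Jersey log2 ratio of CXCL12 was 7.10, which rests on the 0.0202 FPKM at D90 and became 1.89 with the pseudocount of 1.

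From D15 to D250, CCL14, CCL2 and CXCL16 were past the limit as higher at D250 in Kashmiri cattle (1.85% of 11487 names were), and CCL4, CCL5 and CXCL12 as lower (2.2% of names). With the rescaling to the total, CCL4 (log2 ratio -1.58) and CCL5 (-1.61) were no longer past it, which left 3 as higher and 1 as lower. In Jersey cattle CCL14, CCL2, CCL4 and CCL20 were past the limit as higher, against 9.17% of 11320 names, and 0 as lower, against 3.42%. CCL14 was not past it with the rescaling to the total (log2 ratio 1.91). The largest ratio was that of CCL20 in Jersey cattle, 44.1-fold. The rescaling moved the median log2 ratio of all names from -0.04 to 0.77 in Kashmiri cattle. The same rescaling moved the median of all names between the breeds at D250 from -0.10 to -0.75, and the 4 chemokines then past the limit there (CCL14, CCL2, CCL4 and CCL20) were all higher in Jersey cattle.

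**Figure D3:**
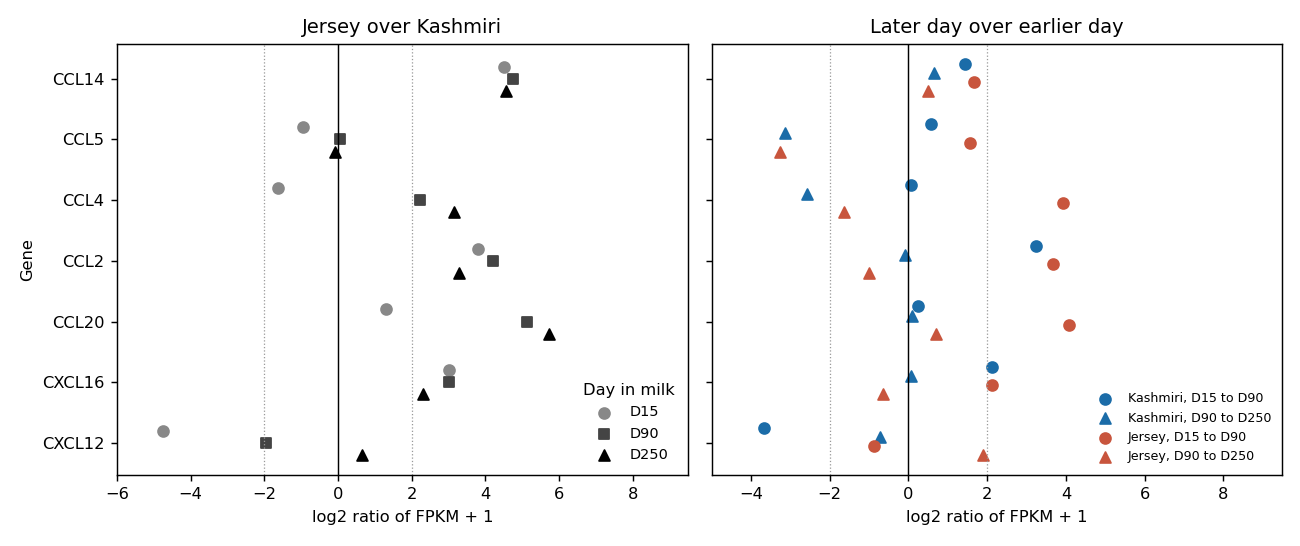
Log2 ratio of FPKM + 1 for the 7 chemokine genes, on the left Jersey over Kashmiri at D15 (circles), D90 (squares) and D250 (triangles), on the right D15 to D90 (circles) and D90 to D250 (triangles) within Kashmiri (blue) and Jersey cattle (red). Dotted lines mark the limit of 2 in either direction; as deposited, CCL14, CCL2 and CXCL16 are to the right of it on all days in the breed comparison (CXCL16 at D250 is not when FPKM is rescaled), and CCL5 lies near 0 at D90 and D250.

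The genes whose pattern over the 6 groups was most like that of a chemokine were listed by Pearson's correlation of log2(FPKM + 1), as a description. The points share the 6 groups, and 642 of 5392 names with a mean of at least 10 FPKM had a correlation with CCL14 above 0.9. The 3 closest to CCL14 were PGK1, a glycolytic enzyme (r = 0.998), ENSBTAG00000022227 (r = 0.998) and RETN, encoding resistin (r = 0.996). RETN had 3.24, 12.02 and 12.1 FPKM in the Kashmiri and 81.2, 257 and 289 FPKM in the Jersey groups. The closest to CCL2 was another chemokine, CXCL16 (r = 0.995), followed by the proteasome subunit PSMA6 (r = 0.995) and NDE1 (r = 0.993). Few names followed CCL5, with 4 above 0.9 and the entry joining SNORA20 and TCP1 as the closest (r = 0.96), then ENSBTAG00000032227 (r = 0.93) and the HSP90 cofactor AHSA1 (r = 0.90). CCL4 was followed by HYPK (r = 0.98), TNFSF9, a ligand on activated antigen-presenting cells (r = 0.96), and GADD45B, a stress-induced gene (r = 0.96). GADD45B had its highest level, 627 FPKM, in Jersey cattle at D90, as CCL4 did. For CXCL12 the closest were TINF2, a telomere protein (r = 0.99), ENSBTAG00000022204 (r = 0.97) and PDRG1 (r = 0.95). A correlation takes no account of the size of a change, and some of these genes were nearly level. HYPK lay between 136 and 179 FPKM, where CCL4 spanned 28.7-fold. TINF2 lay between 9.10 and 13.9 FPKM, where CXCL12 spanned 2409-fold. ENSBTAG00000032227 lay between 15.4 and 19.3 FPKM, where CCL5 spanned 9.67-fold.

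The receptors give the other side of the system. Of 23 receptor genes looked up, 20 were found and CCR1, CXCR1 and CXCR2 were not found among the names. Between the breeds at D15, 3 of the 14 receptors with at least 1 FPKM were past the limit as higher in Jersey cattle and 0 as lower, beside 6.45% and 2.12% of all names. At D90, 2 of 16 were higher and 3 lower, beside 6.58% and 5.17%. At D250, 5 of 14 were higher and 0 lower, beside 10.9% and 1.37%. From D15 to D250 in Jersey cattle, 5 of 11 were past the limit as higher (9.17% of all names), and in Kashmiri cattle 1 of 14 was (1.85%). The median log2 ratio of these receptors between the breeds was 1.04, -0.07 and 0.74 at D15, D90 and D250.

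CXCR4, the receptor of CXCL12, was the most abundant receptor in every group, with 355, 925 and 332 FPKM in the Kashmiri and 199, 1297 and 971 FPKM in the Jersey groups. In Jersey cattle CXCR4 was 6.53-fold higher at D90 than at D15, while its ligand was at its lowest value there. CCR7, the receptor that guides dendritic and T cells to lymph nodes, was highest at D90 in both breeds, with 14.0, 102 and 30.0 FPKM in the Kashmiri and 28.6, 114 and 21.8 FPKM in the Jersey groups. CXCR6, the receptor of CXCL16, had 23.1, 71.0 and 19.7 FPKM in the Kashmiri and 27.0, 12.2 and 7.44 FPKM in the Jersey groups. At D90 CXCR6 was thus 5.81-fold higher in Kashmiri cattle, and its ligand 8.16-fold higher in Jersey cattle.

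CCRL2, an atypical receptor that binds chemerin and does not signal for migration, had 3.82, 15.0 and 9.79 FPKM in the Kashmiri and 47.4, 600.1 and 902 FPKM in the Jersey groups. It was 92.2-fold higher in Jersey than in Kashmiri cattle at D250. The entry joining XCR1 with ENSBTAG00000048004 had 1.27, 3.51 and 3.19 FPKM in the Kashmiri and 20.8, 56.7 and 196 FPKM in the Jersey groups. CCR3, a receptor of CCL5, and CCR2, the receptor of CCL2, were far less abundant than these ligands. CCR3 reached 20.8 FPKM and CCR2 15.1 FPKM, both in Jersey cattle at D250. CCR6, the receptor of CCL20, had 1.14, 2.73 and 5.04 FPKM in the Kashmiri and 12.7, 11.5 and 28.6 FPKM in the Jersey groups. CXCR3, the receptor of CXCL9 to CXCL11 on activated T cells, was highest in Kashmiri cattle at D90 with 14.7 FPKM, 7.03-fold above Jersey cattle.

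Of 28 other chemokine ligands, 20 were found in 19 entries. In the breed comparison at D90, 6 of the 10 entries with at least 1 FPKM were past the limit as higher in Jersey cattle and 0 as lower, beside 6.58% and 5.17% of all names. At D15, 4 of 9 were higher and 2 lower, beside 6.45% and 2.12%, and at D250 2 of 10 were higher and 0 lower, beside 10.9% and 1.37%. The median log2 ratio was 1.58, 2.77 and 1.43 at D15, D90 and D250. CCL22 and CCL17, ligands of CCR4 made by dendritic cells and macrophages, were both highest in Jersey cattle at D90, with 86.6 and 31.4 FPKM. CCL22 had 2.11, 7.32 and 8.49 FPKM in the Kashmiri and 18.2, 86.6 and 22.8 FPKM in the Jersey groups. CCL8, a monocyte attractant related to CCL2, was 16.0-fold higher in Jersey than in Kashmiri cattle at D90 (88.2 against 5.50 FPKM). CCL16, another CC chemokine, had 0.800, 4.08 and 3.28 FPKM in the Kashmiri and 8.56, 31.4 and 45.1 FPKM in the Jersey groups. CCL24, an eosinophil attractant, had 33.0 and 31.4 FPKM at D15 and D90 in Jersey cattle and 7.16 FPKM at D250. PPBP, the platelet chemokine, reached 12.5 FPKM in Jersey cattle at D90.

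CCL28 and an entry of interferon-induced ligands were higher in Kashmiri cattle on each day. CCL28, the mucosal chemokine of secretory epithelium that recruits plasma cells to the udder, had 53.6, 4.98 and 15.4 FPKM in the Kashmiri and 10.5, 0.638 and 10.8 FPKM in the Jersey groups. It was lowest at D90 in both breeds, as was the summed level of the epithelial markers. The entry joining CXCL10 and CXCL11, interferon-induced ligands of CXCR3, had 35.4, 30.8 and 25.5 FPKM in the Kashmiri and 6.92, 7.10 and 11.9 FPKM in the Jersey groups. CXCL9, also interferon-induced, had 3.28, 11.8 and 5.83 FPKM in the Kashmiri and 6.48, 3.80 and 5.39 FPKM in the Jersey groups, and so was higher in Jersey cattle at D15 and in Kashmiri cattle at D90.

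The levels of the cell type markers moved with several of these results, and their part in them was not tested. The neutrophil markers (8 of 12 found) summed to 529, 1406 and 922 FPKM in Kashmiri and to 4921, 6559 and 14314 FPKM in Jersey cattle. Each Jersey sum was thus above each Kashmiri sum, as for CCL14, CCL2, CCL20 and CXCL16. CXCR4, which lymphocytes express too, is on this list and on that of the receptors. Without it, an alternative chosen after the data were seen, the remaining 7 neutrophil markers summed to 174, 481 and 590 FPKM in Kashmiri and to 4723, 5262 and 13343 FPKM in Jersey cattle, so that the Kashmiri sum was highest at D250 rather than at D90. The macrophage and monocyte markers (11 of 12 found) summed to 110, 487 and 498 FPKM in Kashmiri and to 1022, 2158 and 1865 FPKM in Jersey cattle. Here too each Jersey sum was above each Kashmiri sum. Their lowest value was at D15 in both breeds, as for CCL14, CCL2, CCL20, CXCL16 and the neutrophil sum. CD68, a lysosomal macrophage protein, alone had 11.4, 281 and 268 FPKM in the Kashmiri and 169, 1211 and 996 FPKM in the Jersey groups. The complement genes C1QA, C1QB and C1QC, made by macrophages, did not follow it in Jersey cattle, where C1QA had 145, 60.3 and 12.01 FPKM. At D250, 6 of the 10 macrophage and monocyte markers compared were higher in Jersey than in Kashmiri cattle. The other 4 (C1QA, C1QB, C1QC and MSR1) were lower. Past the limit were 1 as higher and 0 as lower, beside 10.9% and 1.37% of all names, and the median log2 ratio was 0.45.

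CCL5 and CCL4 are strongly expressed by cytotoxic T and NK cells. The 12 T and NK cell markers, all of them found, summed to 407, 1568 and 367 FPKM in Kashmiri cattle. Their highest value there was at D90, as for CCL5, CCL4 and CCL2. In Jersey cattle they summed to 306, 181 and 99.1 FPKM, and so were lower at D90 than at D15, whereas CCL5 was 2.98-fold and CCL4 15.4-fold higher at D90. The T cell receptor component CD3E had 146, 659 and 135 FPKM in the Kashmiri and 65.5, 31.7 and 19.5 FPKM in the Jersey groups. The cytotoxic granule gene PRF1 had 26.8, 52.0 and 10.4 FPKM in the Kashmiri and 25.6, 13.0 and 4.41 FPKM in the Jersey groups. NKG7, of the same list, had 25.4, 109 and 35.4 FPKM in the Kashmiri and 63.3, 71.0 and 22.9 FPKM in the Jersey groups. In Jersey cattle NKG7 was the 1 marker of the 12 that was higher at D90 than at D15, and 11 were lower. The epithelial markers summed to 7815, 1036 and 4213 FPKM in Kashmiri and to 3249, 304 and 2382 FPKM in Jersey cattle. They were lowest at D90 in both breeds, when CCL2, CCL4, CCL5 and CXCL16 were at their highest in Jersey cattle. The B cell markers (8 of 8 found) summed to no more than 80.4 FPKM in any group. The red blood cell markers (3 of 6 found) summed to at most 0.670 FPKM, and the fibroblast and endothelial markers (12 of 12 found) to at most 23.5 FPKM.

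**Figure D4:**
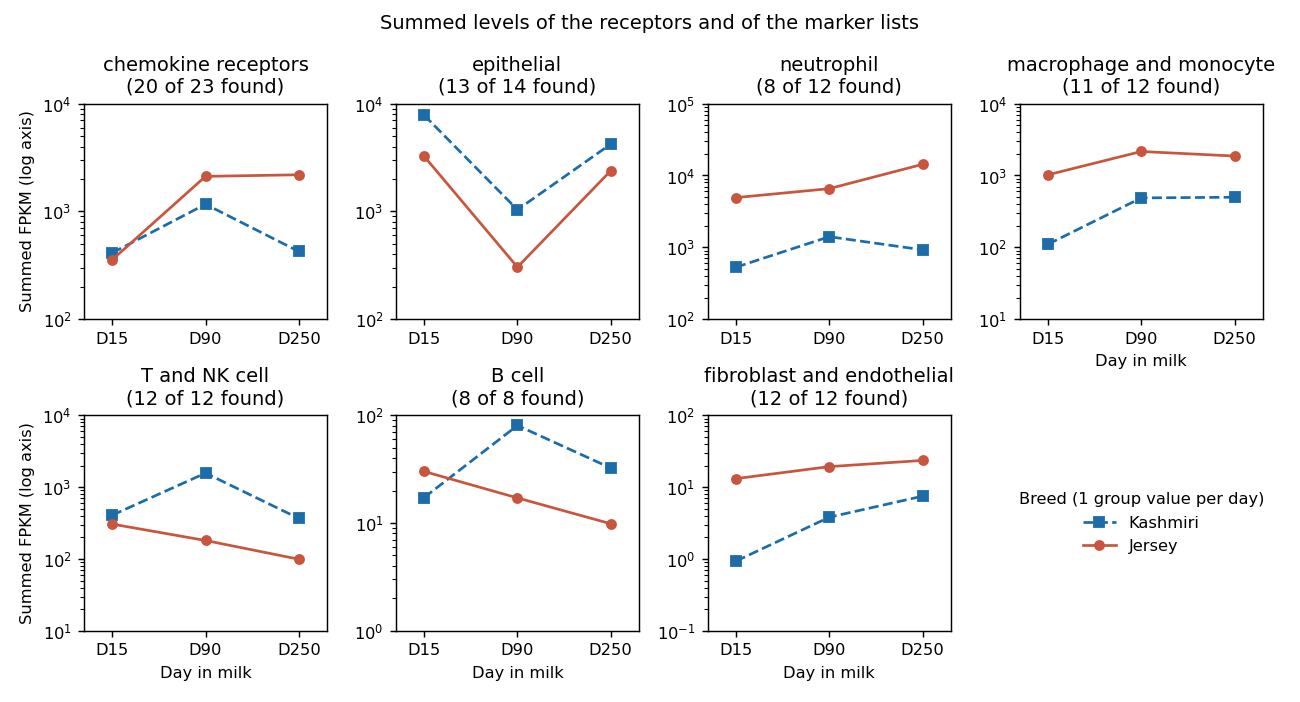
Summed FPKM (log axis) of the chemokine receptors and of 6 marker lists at D15, D90 and D250 in Kashmiri (squares, dashed) and Jersey cattle (circles), with the number of genes found in each title and 1 group value per point. The neutrophil and macrophage sums are higher in Jersey cattle on every day, though 4 of the 10 macrophage markers compared at D250 are lower there. The T and NK cell sum is highest in Kashmiri cattle at D90 (1568 FPKM), and the epithelial sum is lowest at D90 in both breeds.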

How the data were processed

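The authors removed adapters and low-quality reads with Trimmomatic, mapped the rest to UMD3.1 with Bowtie and TopHat, kept uniquely mapped reads, and obtained gene levels from Cufflinks and Cuffdiff. The deposited values are FPKM, 1 per gene entry and group of breed and day. Columns named Local were taken as Kashmiri cattle. Of 61264 entries, 25121 carried a name. Where a name recurred, its entry of highest mean was kept, and joined names were searched by each part. Ratios were the later over the earlier day and Jersey over Kashmiri, without a pseudocount unless stated. A ratio was past the limit at an absolute log2 ratio of 2 (pseudocount 1 FPKM, 1 FPKM or more in a group). All 9 comparisons were made without a test, since the deposited values held none per cow, and the depth behind a group value is unknown.

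The chemokines, marker lists and rules for named genes (receptors and ligands reaching 10 FPKM in a group, and the 3 genes most like each of the 4 most abundant members and CXCL12) were chosen with earlier results of these data known. One receptor that met the rule is not reported here by name. The alternatives were other pseudocounts and limits, FPKM rescaled to its total without the milk protein genes or to its upper quartile, and repeated entries summed. The calling code was tested on simulated data. Software was Python 3.11.15 with pandas 2.3.3, numpy 2.4.6 and matplotlib 3.10.9.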

Additional observations from a re-analysis of the deposited data

Results flagged for a closer look

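CCL4 and CXCL12 moved in opposite directions in the 2 breeds, by at least 1 on the log2 scale of FPKM without a pseudocount in each. Each value compares 1 group value with another, and the difference between the breeds was not tested. From D15 to D250, CCL4 had a log2 ratio of -2.55 for Kashmiri and 2.29 for Jersey cattle. With FPKM rescaled to its total without the milk protein genes, the Kashmiri ratio was -1.58. CXCL12 had one of -5.13 for Kashmiri and 1.69 for Jersey cattle over the same days. From D90 to D250, CXCL12 had a log2 ratio of -1.07 for Kashmiri and 7.10 for Jersey cattle, where the Jersey value at D90 was 0.0202 FPKM. With a pseudocount of 1 FPKM these became -0.71 and 1.89, and with the rescaling to the total the Kashmiri ratio was -0.42, so that it was below 1 in size under both.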

How the results depend on the processing

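No paired analysis was possible because the values hold 1 number per breed and day, with none per cow, and for the same reason no cow could be left out. The members past the limit between D90 and D250 in Jersey cattle were 1 as reported, 2 with a pseudocount of 0.1 FPKM, 3 with an absolute log2 ratio of at least 1, and 2 when FPKM was rescaled to its total without the milk protein genes. With that rescaling, 1 in place of 2 was past it between D90 and D250 in Kashmiri cattle. With an absolute log2 ratio of at least 1, 7 in place of 4 were past it between D15 and D250 in Jersey cattle. The other counts stayed within a factor of 1.5 under all 6 alternatives. Of 63 log2 ratios, 60 kept their sign under all 5 alternatives, including the 34 past the limit. The exceptions were ratios not past the limit: CCL2 between D90 and D250 in Kashmiri cattle (0.567 with the rescaling to the total and 0.0215 with the upper quartile), CCL14 between D90 and D250 in Jersey cattle (-2.0e-05 with the rescaling to the total) and CCL5 between the breeds at D90 (-0.0859 with the upper quartile). The cause was not tested.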

Other observations

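Genes of the NF-kB pathway and its upstream cytokines, which switch on chemokine genes in many cells, were looked up as a list of 16, of which 14 were found. From D15 to D250 in Jersey cattle, 12 of 14 were past the limit as higher and 0 as lower, beside 9.17% and 3.42% of all names, with a median log2 ratio of 3.00 beside 0.07 for all names. In Kashmiri cattle 0 of the 13 with at least 1 FPKM were past it in either direction over the same days, beside 1.85% higher and 2.2% lower of all names, with a median of 0.19. Between the breeds at D250, 12 of 14 were higher in Jersey cattle and 0 lower, beside 10.9% and 1.37% of all names, with a median of 3.94 beside -0.10.

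IL1B, the interleukin 1 beta gene, had 16.2, 16.1 and 20.5 FPKM (D15, D90 and D250) in the Kashmiri and 243, 1905 and 3290 FPKM in the Jersey groups. NFKBIA, the inhibitor that NF-kB itself induces, had 56.0, 120 and 71.7 FPKM in the Kashmiri and 371, 4932 and 3890 FPKM in the Jersey groups. TNF, in contrast, stayed below 5 FPKM in every group, with 3.74, 4.12 and 1.21 FPKM in the Kashmiri and 4.67, 0.957 and 1.99 FPKM in the Jersey groups. TNFAIP3, which limits NF-kB signalling, had 76.1, 96.1 and 25.1 FPKM in the Kashmiri and 24.4, 278 and 267 FPKM in the Jersey groups, so that, as for CCL4, the Kashmiri value was the higher at D15 and the Jersey value at D90 and D250.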
